A study of Mus musculus with 16 samples.

Results

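Small leucine-rich proteoglycans are secreted proteins of the extracellular matrix, and 8 of their genes were followed here through mouse melanocytes and 2 mouse melanoma models: Ogn (osteoglycin), Dcn (decorin), Lum (lumican), Bgn (biglycan), Fmod (fibromodulin), Prelp (prolargin), Aspn (asporin) and Omd (osteomodulin). The members are the 18 probe sets, of 20380 that carry a single gene symbol and 22690 on the array, whose symbol is one of these 8 names. The 8 genes are 8 of 12393 genes measured. They were chosen with measured values in view, because Ogn had the highest increase of all genes in one tumour model over the other. The difference between the 2 tumour models is therefore described here and not tested.

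These proteins share a core of leucine-rich repeats that folds into a curved solenoid and binds collagen, and most carry glycosaminoglycan chains. They coat collagen fibrils and set how thick fibrils become and how they are spaced, and in skin fibroblasts are their main source. Dcn, Bgn and Aspn form one class of the family, whose Dcn and Bgn carry chondroitin or dermatan sulfate chains. Lum, Fmod, Prelp and Omd form another, in which Lum, Fmod and Omd are known for keratan sulfate, and Ogn belongs to a further class. Several also bind growth factors and receptors. Decorin binds transforming growth factor beta and the receptor tyrosine kinase MET, which is the oncogene of one of the tumour models.

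The series holds 16 arrays in 3 groups. The iMet melanomas (6 arrays) came from mice with the alleles Tyr-rtTA, Tet-Met and Ink4a/Arf-/-, and the iHRAS* melanomas (6 arrays, titled iRas in the labels) from mice with Tyr-rtTA, Tet-HRASV12G and Ink4a/Arf-/-. Both models thus share the tyrosinase-driven reverse tetracycline activator, a tetracycline-dependent oncogene and loss of Ink4a/Arf, and differ in the oncogene. The third group is melanocytes without disease (4 arrays), for which the labels give no genotype, strain or age. The labels call the tumour material isolated melanoma cells and the design text speaks of RNA from cutaneous melanomas, so other cells of the tumour may be included. In such RNA, fewer cells of a type and less RNA per cell cannot be told apart. The design compared the 2 models as melanomas with and without the capacity to metastasise, with the melanocytes as the untransformed group.

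The 3 members Aspn, Omd and Ogn lie side by side on chromosome 13 in that order, and Prelp and Fmod lie side by side on chromosome 1, as do Dcn and Lum on chromosome 10. Bgn lies on chromosome X. RefSeq promoter windows (GRCm38.p6) were matched by symbol for 6 of the 8 members, and not for Dcn and Lum. The 250 bases before the annotated start are shown for the 3 chromosome 13 neighbours, whose values differed between the groups in different ways, and for Fmod, whose difference between the models had the opposite sign to that of Ogn. Capitals mark TATAAA and GGAATG on either strand (TTTATA is TATAAA on the other strand).
Ogn, chr13:49607765-49608014, plus strand: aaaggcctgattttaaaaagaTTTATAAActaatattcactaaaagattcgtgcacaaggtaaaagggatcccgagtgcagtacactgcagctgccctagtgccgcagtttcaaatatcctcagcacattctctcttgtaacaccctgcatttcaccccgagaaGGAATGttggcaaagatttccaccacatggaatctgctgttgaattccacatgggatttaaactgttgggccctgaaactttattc
Omd, chr13:49582212-49582461, plus strand: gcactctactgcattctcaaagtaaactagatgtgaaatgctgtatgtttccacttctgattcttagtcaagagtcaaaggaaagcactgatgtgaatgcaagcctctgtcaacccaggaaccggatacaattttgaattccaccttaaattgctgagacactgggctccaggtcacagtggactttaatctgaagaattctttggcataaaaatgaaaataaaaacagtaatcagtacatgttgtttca
Aspn, chr13:49544193-49544442, plus strand: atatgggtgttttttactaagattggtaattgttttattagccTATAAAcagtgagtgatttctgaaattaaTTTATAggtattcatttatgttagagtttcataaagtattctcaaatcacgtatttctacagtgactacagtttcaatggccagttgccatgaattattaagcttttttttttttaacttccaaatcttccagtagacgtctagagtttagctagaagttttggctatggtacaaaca
Fmod, chr1:134037004-134037253, plus strand: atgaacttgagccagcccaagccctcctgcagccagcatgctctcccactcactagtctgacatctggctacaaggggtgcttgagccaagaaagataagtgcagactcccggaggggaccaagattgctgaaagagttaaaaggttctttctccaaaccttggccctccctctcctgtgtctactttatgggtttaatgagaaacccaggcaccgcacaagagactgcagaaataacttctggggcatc
TATAAA, the core of the TATA box, occurred in the windows of Ogn and Aspn among the 6 members, against 12.4% of 32851 RefSeq promoter windows. In Ogn 2 overlapping matches, one on each strand, lay 229 and 227 bases before the start. GGAATG, a core of the M-CAT element bound by TEAD factors, occurred in Ogn alone, 86 bases before the start, against 12.6% of all windows. This motif was added after the Ogn window had been read. Among the other motifs searched on both strands, CANNTG (E-box) occurred in 4 of the 6 windows (Ogn, Bgn, Fmod and Aspn), against 66.2% of all. TGANTCA (AP-1) and CAGACA (SMAD) occurred in none of the 6, against 6.75% and 17.1% of all. A match is a string of letters and not a measured site.

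All levels below are log2 signal after quantile normalization of the arrays, so a difference of 1 is a doubling relative to the rest of the array, and a gene with several probe sets is represented by the brightest. The values were compared with a dim limit of log2 6.21, under which a signal was treated as too low to order. The targeted receptor gene Met read 8.39 to 9.98 on the iMet arrays, 5.42 to 7.46 on the iHRAS* arrays and 7.25 to 9.13 on the melanocyte arrays. Of the melanocyte markers, Sox10, Pmel, Pax3 and Slc45a2 were above the dim limit on all 4 melanocyte arrays, and Mitf, Tyr, Tyrp1, Dct, Kit and Gpr143 on none. The melanocyte arrays formed 2 pairs. Arrays 1 and 3 had a mean collagen level of 11.04 and 11.36 and a mean fibroblast marker level of 8.37 and 8.76, and arrays 2 and 4 had 9.59 and 8.70, and 6.85 and 6.38. Their mean keratinocyte marker level ran the other way, at 7.28 and 6.43 against 9.17 and 8.98. The melanocyte differences of members and the counts of the matrix and fibroblast lists are therefore given also without a pair where that changes them. The iHRAS* arrays 5 and 6 differed from all others in sex-linked transcripts (Xist 6.60 and 6.33, against 10.92 to 13.07). Without them the only member to lose a call was Bgn in iMet against melanocytes, and Prelp changed sign between the tumour models, from −0.47 to 0.25.

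**Figure D1:**
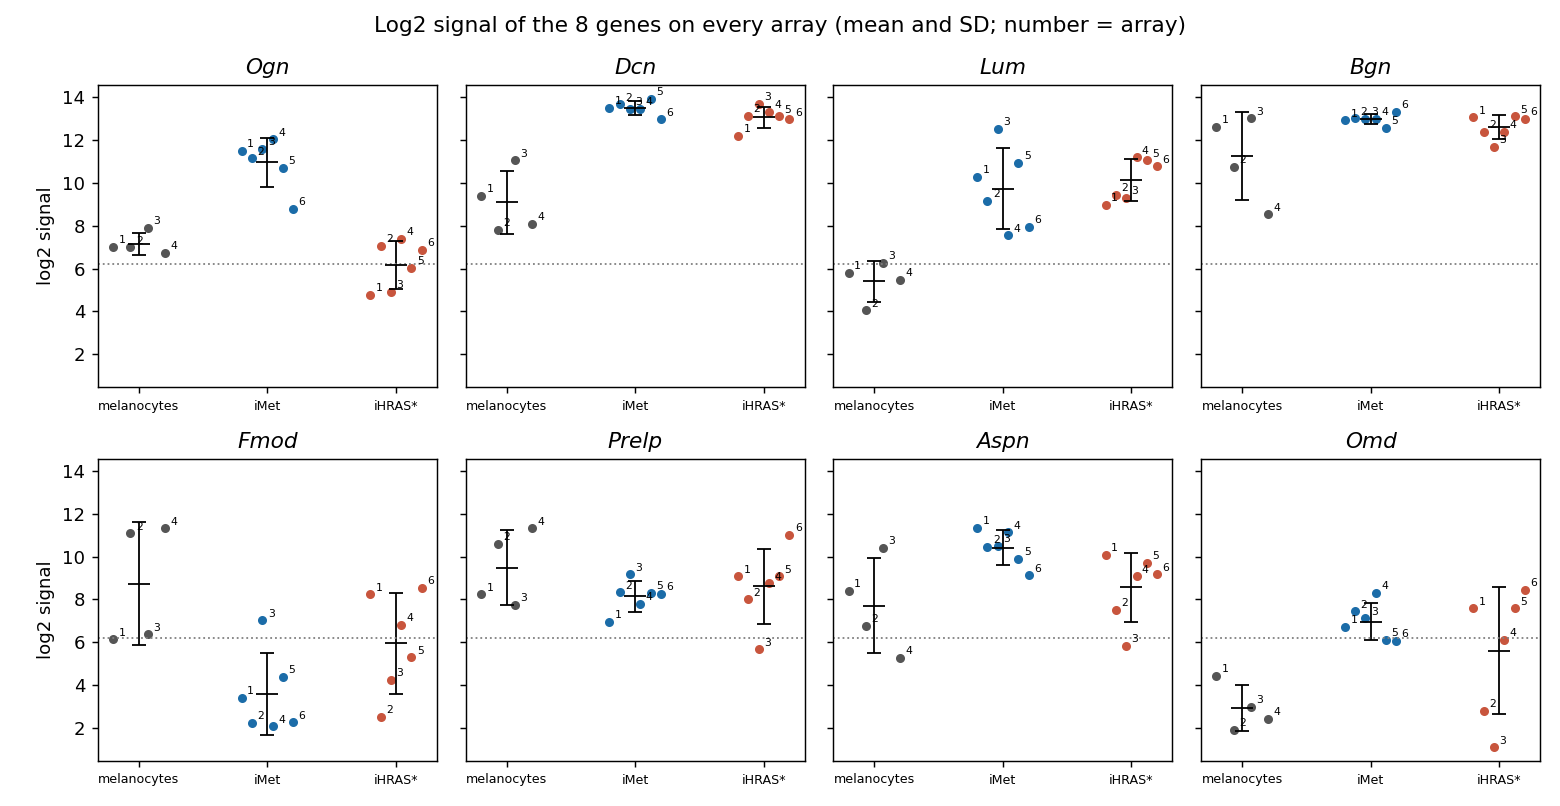
Log2 signal (vertical axis) of the 8 genes on each array of the 3 groups (horizontal axis), one point per array with its number, with the mean and SD of each group as bars and the dim limit of 6.21 as a dotted line. The iMet arrays of Ogn, at 8.80 to 12.04, lie above every other array of that gene, while in each of the other 7 genes the 2 tumour models overlap.

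Ogn, which encodes osteoglycin (also called mimecan), separated the 2 tumour models. In the iMet melanomas its signal was 8.80 at the lowest, 11.33 at the median and 12.04 at the highest array (mean 10.97 ± 1.15 SD, n = 6). In the iHRAS* melanomas it was 4.78, 6.47 and 7.38 (6.18 ± 1.12 SD, n = 6), and 3 of these 6 arrays were above the dim limit. The 4 melanocyte arrays read 7.01, 6.99, 7.90 and 6.74 (7.16 ± 0.51 SD, n = 4). Every iMet array was thus above every array of the other groups, while the iHRAS* and melanocyte ranges overlapped. The difference between iMet and iHRAS* was 4.79 ± 0.59 (SE) on the log2 scale, and a second Ogn probe set gave 4.54 ± 0.70. No fold is given because the iHRAS* mean lies under the dim limit. With any one tumour array left out the difference stayed between 4.51 and 5.22. The iMet value minus the melanocyte value was 3.81 ± 0.61 (14.0-fold), and the iHRAS* value minus the melanocyte value was −0.98 ± 0.61. These values use the tumour arrays on which the gene was chosen and carry no test. Among the iMet arrays, array 6 was the lowest at 8.80, against 10.70 to 12.04 on the other 5.

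Aspn and Omd, the neighbours of Ogn on chromosome 13, had a higher mean in iMet than in iHRAS* melanomas, with ranges that overlapped. Aspn encodes asporin, which binds collagen and transforming growth factor beta and carries a run of aspartic acid near its amino terminus. Its iMet signal was 9.13 at the lowest, 10.48 at the median and 11.34 at the highest array (10.41 ± 0.81 SD, n = 6). In iHRAS* melanomas it was 5.83, 9.13 and 10.08 (8.57 ± 1.60 SD, n = 6). The melanocyte arrays read 8.40, 6.76, 10.42 and 5.27 (7.71 ± 2.21 SD, n = 4), so that all 3 groups overlapped. The difference between iMet and iHRAS* was 1.84 ± 0.66 (SE), and 1.13 ± 0.60 at the second Aspn probe set. Against melanocytes Aspn rose in iMet by 2.69 ± 0.92 (6.47-fold, limma adjusted p = 0.0335). The call was lost without melanocyte array 2 or 4 (1.88 and an adjusted p of 0.125 without array 4) and without iMet array 1, 2, 3 or 4. Without melanocyte arrays 2 and 4 together the difference was 1.00 (limma adjusted p = 0.478), and without arrays 1 and 3 it was 4.39 (limma adjusted p = 0.0038). In iHRAS* the difference was 0.86 ± 0.92 (limma adjusted p = 0.481), and it was −0.84 without melanocyte arrays 2 and 4.

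Omd encodes osteomodulin, a keratan sulfate proteoglycan best known from bone and tooth. Its iMet signal was 6.06 at the lowest, 6.92 at the median and 8.31 at the highest array (6.96 ± 0.85 SD, n = 6). The iHRAS* arrays spread far more, with 1.11, 6.85 and 8.44 (5.61 ± 2.98 SD, n = 6). No melanocyte array was above the dim limit, at 4.43, 1.92, 3.00 and 2.44 (2.95 ± 1.08 SD, n = 4). Of the tumour arrays, 4 of 6 in iMet and 3 of 6 in iHRAS* were above the limit. Omd thus entered the fit through tumour arrays only, so a difference from melanocytes was built into its entry and its call is a description. The iMet value was higher than the melanocyte value by 4.02 ± 1.19 (limma adjusted p = 0.0167, and 0.0257 with no filter on dim genes). No fold is given because the melanocyte values lie under the dim limit. The call was lost without melanocyte array 2 (3.67, limma adjusted p = 0.0521) and without arrays 2 and 4 (3.25, limma adjusted p = 0.149). In iHRAS* the difference was 2.66 ± 1.19 (limma adjusted p = 0.0875), and it passed without iHRAS* array 3 (3.56, limma adjusted p = 0.00786) or array 2. The iMet minus iHRAS* difference of Omd was 1.36 ± 1.14.

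Within iMet melanomas the 3 neighbours tended to be high and low on the same arrays. Array 6 was the lowest of the 6 for Ogn and Aspn and under the dim limit for Omd, as was array 5 for Omd. Array 4 was the highest for Ogn and Omd. The Pearson correlation with Ogn over the 6 iMet arrays was 0.91 for Aspn and 0.75 for Omd, and over the 6 iHRAS* arrays 0.14 and 0.17. These are descriptions of 6 arrays each, which share their normalization, and the difference between the models was not tested. For Omd they include values under the dim limit in both models. In iHRAS* Ogn itself was above that limit on only 3 of 6 arrays, and Aspn was under it on array 3 (5.83). The iHRAS* correlations therefore rest partly on values that have no order.

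Dcn and Lum, neighbours on chromosome 10, were high in both tumour models and low in melanocytes. Decorin signal in iMet melanomas was 12.97 at the lowest, 13.48 at the median and 13.93 at the highest array (13.50 ± 0.31 SD, n = 6). In iHRAS* melanomas it was 12.21, 13.11 and 13.69 (13.07 ± 0.49 SD, n = 6). The melanocyte arrays read 9.40, 7.82, 11.06 and 8.09 (9.09 ± 1.48 SD, n = 4), and no tumour array overlapped them. Dcn rose by 4.41 ± 0.48 in iMet (21.2-fold, limma adjusted p = 8.61e-06) and by 3.98 ± 0.48 in iHRAS* (15.8-fold, limma adjusted p = 2.32e-05). Both comparisons use the same melanocyte arrays. Measured against melanocyte arrays 1 and 3 alone, which had the higher collagen and fibroblast marker levels, the differences were 3.27 (limma adjusted p = 0.000101) and 2.84 (limma adjusted p = 0.000339). Between the tumour models Dcn differed by 0.43 ± 0.22, with overlapping ranges.

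Lum encodes lumican, which in skin and cornea keeps collagen fibrils thin and evenly spaced. It varied widely among the iMet melanomas, with 7.55 on array 4 as the lowest, 9.72 as the median and 12.53 on array 3 as the highest (9.73 ± 1.89 SD, n = 6). The iHRAS* arrays gave 8.99, 10.11 and 11.20 (10.13 ± 0.99 SD, n = 6). The melanocyte arrays read 5.79, 4.06, 6.27 and 5.49 (5.40 ± 0.95 SD, n = 4), 1 of them above the dim limit. All tumour arrays of both models lay above the limit and above all melanocyte arrays. Lum therefore entered the fit through the tumour arrays, and its calls, like that of Omd, are descriptions. It was higher by 4.33 ± 0.84 in iMet (limma adjusted p = 0.00116) and by 4.73 ± 0.84 in iHRAS* (limma adjusted p = 0.000577). With no filter on dim genes the limma adjusted p was 0.00213 and 0.0011. Without melanocyte arrays 2 and 4 the differences were 3.71 (limma adjusted p = 0.0242) and 4.10 (limma adjusted p = 0.0154). The iMet array with the highest Ogn and Omd signal, array 4, was the lowest for Lum, and the difference between the models was −0.40 ± 0.79.

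Bgn encodes biglycan, the X-linked relative of decorin, which also signals through Toll-like receptors when set free from matrix. It was near the top of the signal range in both tumour models, at 12.58, 13.00 and 13.33 in iMet (12.97 ± 0.24 SD, n = 6) and 11.68, 12.68 and 13.11 in iHRAS* (12.60 ± 0.56 SD, n = 6). The melanocyte arrays split by pair, with 12.63 and 13.02 on arrays 1 and 3 and 10.76 and 8.54 on arrays 2 and 4 (11.24 ± 2.05 SD, n = 4). The first pair thus lay within the tumour range and the second below it. Bgn rose in iMet by 1.74 ± 0.63 (3.34-fold, limma adjusted p = 0.0442), and 2 further probe sets gave 2.28 ± 0.78 and 2.04 ± 0.73. That call was lost in 13 of 16 fits that left out 1 array (limma adjusted p up to 0.139), without iHRAS* arrays 5 and 6 (limma adjusted p = 0.0601), and without melanocyte arrays 2 and 4, where the difference was 0.15 (limma adjusted p = 0.76). In iHRAS* the difference was 1.36 ± 0.63 (limma adjusted p = 0.0986). It passed without melanocyte arrays 1 and 3 (2.95, limma adjusted p = 0.000532) and was −0.22 without arrays 2 and 4 (limma adjusted p = 0.651). Between the models Bgn differed by 0.37 ± 0.23, and the 2 iHRAS* arrays that differed in sex-linked transcripts read 13.11 and 12.99, at the upper end of their group.

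**Figure D2:**
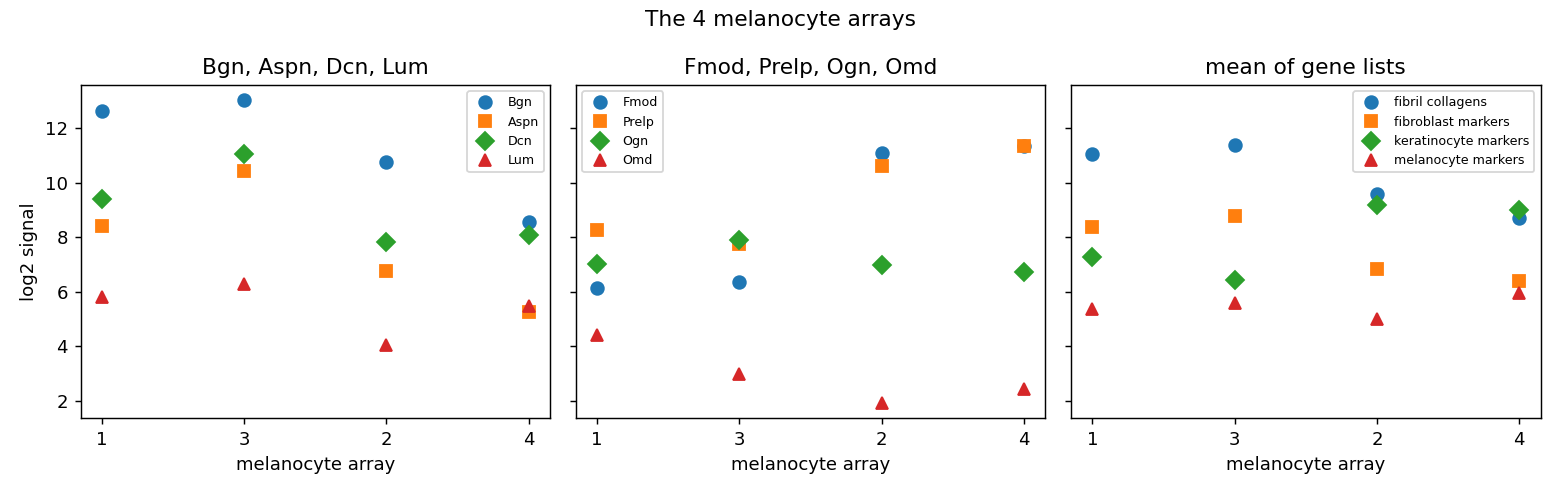
Log2 signal (vertical axis) on each of the 4 melanocyte arrays (horizontal axis, arrays 1 and 3 before 2 and 4) for the 8 genes in the left and middle panels and for the mean of 4 gene lists in the right panel. Bgn, Aspn and Dcn are higher on arrays 1 and 3, as are the collagen and fibroblast lists, while Fmod and Prelp are higher on arrays 2 and 4, as is the keratinocyte list.

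Fmod and Prelp, neighbours on chromosome 1, had a higher mean in melanocytes than in either tumour model. Fibromodulin is the close relative of lumican and shares a binding site on collagen with it. The melanocyte arrays read 6.15, 11.09, 6.37 and 11.33 for Fmod (8.74 ± 2.86 SD, n = 4), so that arrays 2 and 4 were high and arrays 1 and 3 near the dim limit. In iMet melanomas Fmod was 2.09 at the lowest, 2.83 at the median and 7.02 at the highest array (3.57 ± 1.91 SD, n = 6), with 1 array above the dim limit. In iHRAS* melanomas it was 2.52, 6.06 and 8.55 (5.95 ± 2.36 SD, n = 6), with 3 arrays above it. The highest iMet array lay within the melanocyte range, and the other 5 were under the dim limit, as was melanocyte array 1. Fmod fell in iMet by 5.17 ± 1.39 on the log2 scale (limma adjusted p = 0.01), and the call held with any one array left out (limma adjusted p at most 0.0411). Against melanocyte arrays 1 and 3 alone the difference was −2.70 (limma adjusted p = 0.217). The other 5 Fmod probe sets gave differences from −4.96 to −3.50, 1 of them too dim to test. In iHRAS* the difference was −2.79 ± 1.39 (limma adjusted p = 0.124), −5.26 without melanocyte arrays 1 and 3 (limma adjusted p = 0.0176) and −0.31 without arrays 2 and 4 (limma adjusted p = 0.901). Between the tumour models Fmod differed by −2.38 ± 1.14, from signals too dim to enter that fit.

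Prelp encodes a proteoglycan with a basic amino terminus that binds heparan sulfate and anchors basement membranes to connective tissue. Its melanocyte arrays split as Fmod did, at 8.25, 10.59, 7.74 and 11.33 (9.48 ± 1.75 SD, n = 4). The iMet arrays gave 6.96, 8.29 and 9.17 (8.14 ± 0.73 SD, n = 6) and the iHRAS* arrays 5.68, 8.92 and 11.03 (8.61 ± 1.75 SD, n = 6), and all 3 groups overlapped. Neither tumour model passed the test, with differences of −1.34 ± 0.86 in iMet (limma adjusted p = 0.245) and −0.87 ± 0.86 in iHRAS* (limma adjusted p = 0.447). Without melanocyte arrays 1 and 3 the iMet difference was −2.82 (limma adjusted p = 0.044), and without arrays 2 and 4 it was 0.14 (limma adjusted p = 0.929). The models differed by −0.47 ± 0.70. A second, dimmer Prelp probe set gave −1.89 ± 1.20 in iMet and −2.23 ± 1.20 in iHRAS* against melanocytes, neither passing. Between the models it gave 0.35 ± 1.06, from signals too dim to enter that fit.

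Set side by side, the 18 probe sets showed 1 gene apart from the rest between the tumour models. Ogn was the only member whose iMet and iHRAS* ranges did not overlap, in both of its probe sets. Of all 8058 genes tested in that comparison, 20.9% were called at a limma adjusted p under 0.05 and 11.2% were called higher in iMet. A share of 5.83% lay higher in iMet with no overlap of ranges. The calls over all genes were 905 higher and 782 lower, and 1800 higher and 448 lower on the deposited scaling, which moved the median of all genes from 0.03 to 0.23. Those shares are given as background, since the members were chosen on this contrast. Over all 8 members the median difference was 0.40, and over the 7 that entered the fit it was 0.43, against 0.03 over all genes tested. Both member medians include Ogn, on whose difference the members were chosen, so nothing is read from them. iHRAS* array 3 was the lowest of its group for Aspn, Bgn and Prelp and the highest for Dcn, so no single order of arrays held for all members.

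**Figure D3:**
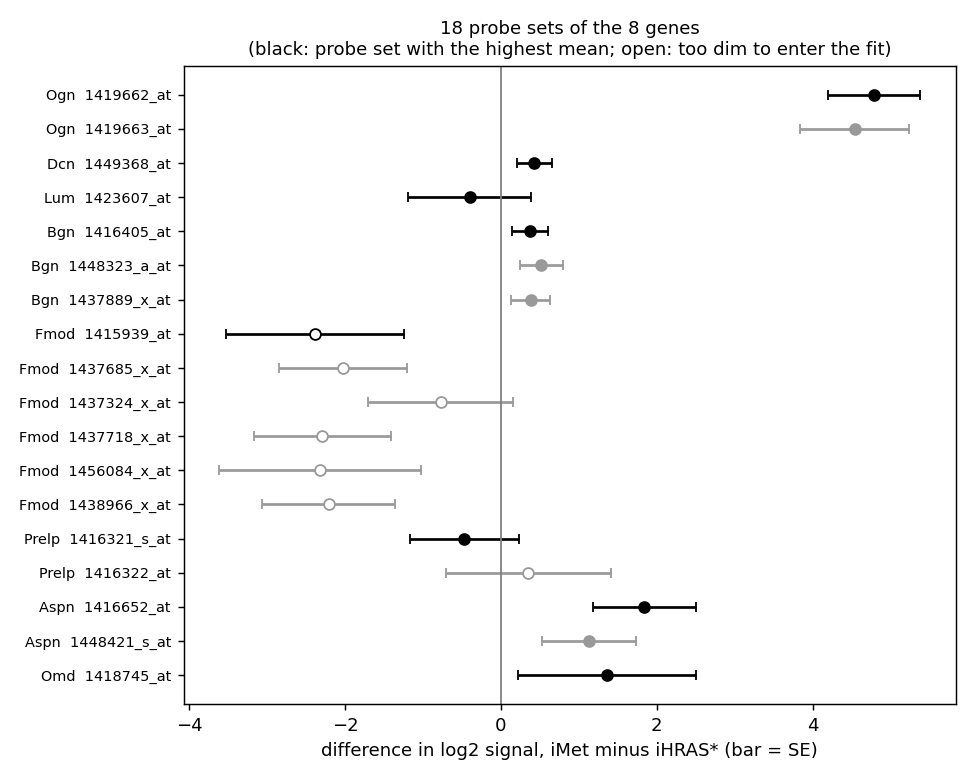
Difference in log2 signal, iMet minus iHRAS* (horizontal axis), for each of the 18 probe sets, with the SE as bar and open circles for probe sets too dim to enter the fit. The 2 Ogn probe sets lie at 4.79 and 4.54, and the next highest probe set, of Aspn, at 1.84.

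Against melanocytes, the calls of the 7 members other than Ogn ran mostly upward in iMet. In that model 5 of the 7 were called higher (Dcn, Lum, Bgn, Aspn and Omd), 1 lower (Fmod) and Prelp did not pass, where 16.4% of 8651 genes tested rose and 18.7% fell. In iHRAS* 2 of the 7 were called higher (Dcn and Lum) and none lower by limma, where 18.1% rose and 21.3% fell. Lum and Omd were among these through tumour arrays alone or nearly so, so nothing is read from the counts. At an unadjusted p under 0.05, Bgn and Omd were also higher in iHRAS*, and no member was lower by its brightest probe set. Fmod was lower at that level by further probe sets, with differences of −2.55 and −2.73. Its brightest probe set (−2.79) and its other tested probe sets (−2.40 and −2.64) missed that level. Over all genes the iMet calls were 1418 higher and 1622 lower, 1527 and 1202 on the deposited scaling and 1176 and 2308 with arrays centred on their median. The iHRAS* calls were 1565 and 1839, 1341 and 2425, and 1336 and 2570. No member changed direction under those scalings. The median difference over the 8 members was 3.25 in iMet, against −0.08 over all genes tested, and 1.11 in iHRAS*, against −0.09. These medians include Ogn, chosen on the tumour arrays, and Lum and Omd, so nothing is read from them either. All 8 members passed the filter on dim values. Ranges did not overlap for Ogn, Dcn, Lum and Omd in iMet and for Dcn and Lum in iHRAS*, against 12.6% and 11.2% of genes tested that lay higher without overlap. For Omd that rests partly on values under the dim limit, which have no order. Both comparisons share the melanocyte arrays, and whether the members responded differently in the 2 models was not tested. The upward count in iMet was 2 (Dcn and Lum) without melanocyte arrays 2 and 4, and 5 without arrays 1 and 3. The part of the melanocyte pairs' collagen, fibroblast and keratinocyte marker levels in these counts was not tested.

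**Figure D4:**
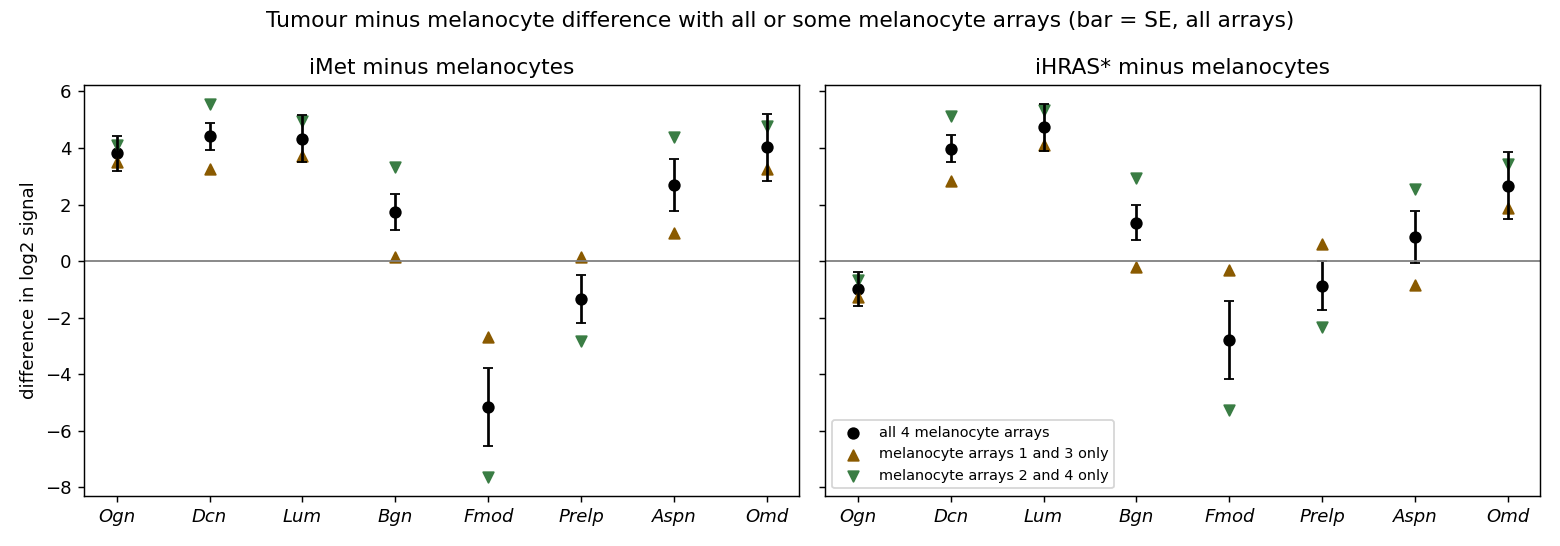
Difference in log2 signal from melanocytes (vertical axis) for the 8 genes in iMet (left) and iHRAS* (right), with all 4 melanocyte arrays (circle, bar = SE) and with only arrays 1 and 3 or only arrays 2 and 4 (triangles). Dcn and Lum lie above 0 with either pair in both models, whereas Bgn in iMet lies at 0.15 with arrays 1 and 3 and at 3.32 with arrays 2 and 4.

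The proteins that work with these proteoglycans were counted from fixed lists, to be read against the shares of all genes tested. Those shares were 16.4% rising and 18.7% falling in iMet, and 18.1% and 21.3% in iHRAS*. Between the models 11.2% were called higher in iMet, and 782 of 8058 genes were called lower. Of 12 fibril collagens and collagens of the fibril surface, 4 rose and 1 fell in iMet against melanocytes, and 5 rose and none fell in iHRAS*. Col3a1, the collagen that mixes with type I fibrils in skin, rose by 2.61 ± 0.75 in iMet (limma adjusted p = 0.0138). In iHRAS* it rose by 2.50 (limma adjusted p = 0.0152). These counts changed with the melanocyte pairs, with 7 rising and none falling in iMet without arrays 1 and 3, and 1 rising and 3 falling without arrays 2 and 4. In iHRAS* they were 8 and none, and 2 and 1. The mean collagen level was 10.44 to 11.00 on the iMet and 11.05 to 11.73 on the iHRAS* arrays. Between the tumour models none of 11 collagens rose in iMet and 3 fell. Col11a1, a collagen of the fibril core that limits its width, differed by −3.29 ± 0.72 (limma adjusted p = 0.00717), and this held with any one array left out. Col12a1, a collagen that decorates fibrils, differed by −2.52 ± 0.60 (limma adjusted p = 0.0116) and missed the threshold without iHRAS* arrays 5 and 6 (limma adjusted p = 0.06). Col6a1 differed by −0.54 ± 0.15 (limma adjusted p = 0.0247), which was lost without any of 5 arrays.

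Among 13 genes of fibril assembly and crosslinking, 4 rose and 2 fell in iMet against melanocytes, and 2 rose and 1 fell in iHRAS*. Without melanocyte arrays 1 and 3 the counts were 6 and 2 in iMet and 5 and 1 in iHRAS*, and without arrays 2 and 4 they were 2 and 4, and 1 and 3. Thbs1, thrombospondin 1, was lower in both, by −4.53 ± 0.49 (limma adjusted p = 7.85e-06) and −3.65 ± 0.49 (limma adjusted p = 5.92e-05). Tgfbi, a collagen-binding protein induced by transforming growth factor beta, rose by 2.08 ± 0.41 (limma adjusted p = 0.00139) and 2.16 ± 0.41 (limma adjusted p = 0.000987). Between the models 2 of 12 rose in iMet, the matrilin Matn2 (1.29 ± 0.36, limma adjusted p = 0.0226) and Dpt, the decorin-binding dermatopontin (1.64 ± 0.52, limma adjusted p = 0.0424). The 2 that fell were Tnc (−1.94 ± 0.54, limma adjusted p = 0.0247) and Thbs2 (−0.97 ± 0.29, limma adjusted p = 0.0343). With one array left out, between 0 and 2 rose and between 0 and 2 fell. The arrays whose loss ended a call were iHRAS* array 1 for Tnc (limma adjusted p = 0.0501), iMet array 1 for Matn2 (limma adjusted p = 0.0526), any of 8 arrays for Thbs2 and any of 9 of the 12 for Dpt (limma adjusted p up to 0.0848).

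Of 18 enzymes of glycosaminoglycan chain synthesis, 3 rose and 2 fell against melanocytes in each tumour model, which is near or under the shares of all genes. Without melanocyte arrays 1 and 3, 3 rose and none fell in iMet and 2 rose and 1 fell in iHRAS*, and without arrays 2 and 4, 2 and 3, and 1 and 3. Csgalnact1, which starts the chondroitin chain on its linker, rose by 2.62 ± 0.55 in iMet (limma adjusted p = 0.00194) and by 3.34 ± 0.55 in iHRAS* (limma adjusted p = 0.000318), and both calls held in every alternative run. Chst14, the sulfotransferase of dermatan sulfate, was lower by −0.77 ± 0.19 in iMet (limma adjusted p = 0.0072) and −0.83 ± 0.19 in iHRAS* (limma adjusted p = 0.00395), and the iMet call was lost without melanocyte arrays 1 and 3 (limma adjusted p = 0.0796). Between the models none of 17 rose in iMet and 2 fell. Csgalnact1 differed by −0.72 ± 0.15 (limma adjusted p = 0.00571), also in every alternative, and Chpf2 by −0.41 ± 0.11 (limma adjusted p = 0.0253), which was −0.17 and did not pass on the deposited scaling (limma adjusted p = 0.359).

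The ligands and receptors bound by these proteoglycans changed in both directions. Of 15 genes, 5 rose and 1 fell in iMet against melanocytes, and 2 rose and 3 fell in iHRAS*. Without melanocyte arrays 1 and 3 the counts were 4 and 1, and 3 and 2, and without arrays 2 and 4 they were 5 and 3, and 2 and 3. Tgfb2, a growth factor held by decorin, was lower by −3.38 ± 0.31 in iMet (limma adjusted p = 1.47e-06) and −3.06 ± 0.31 in iHRAS* (limma adjusted p = 4.45e-06). Lrp1, the endocytic receptor that takes up decorin, rose by 1.51 ± 0.19 (limma adjusted p = 2.72e-05) and 1.75 ± 0.19 (limma adjusted p = 6.94e-06). Between the models 2 of 14 rose in iMet. Met, the introduced oncogene, rose by 2.53 ± 0.35 (limma adjusted p = 0.000624), and Tlr4, a receptor of free biglycan, by 0.75 ± 0.21 (limma adjusted p = 0.0232). The Tlr4 call was lost with the replicate numbers added to the fit as a block (limma adjusted p = 0.0643). Of the proteases that process or cleave these proteins, none of 10 passed between the models by limma, and Mmp2 and Mmp9 had an unadjusted p under 0.05. Against melanocytes 3 of 11 rose and 2 fell in iMet, and 4 rose and 1 fell in iHRAS*. With 1 array left out, between 1 and 4 rose in iHRAS*, with 2 or fewer without melanocyte array 2 or 4 or iHRAS* array 5. Without melanocyte arrays 1 and 3, 5 rose and 2 fell in iMet and 6 rose and 1 fell in iHRAS*, and without arrays 2 and 4, 1 and 2, and 0 and 2. Mmp9, the gelatinase B of inflamed tissue, rose by 3.48 ± 0.61 in iMet (limma adjusted p = 0.000524), in every alternative run. In iHRAS* it rose by 2.08 (limma adjusted p = 0.0137). That call was lost without melanocyte array 4 (limma adjusted p = 0.054) and without arrays 2 and 4 (limma adjusted p = 0.186).

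Fibroblast markers had a positive median difference from melanocytes in both tumour models, 1.59 in iMet and 2.12 in iHRAS*. Values are given here because fibroblasts make these proteoglycans. The mean of 14 markers was 6.38 to 8.76 on the melanocyte arrays, 8.75 to 9.70 on the iMet arrays and 8.77 to 10.02 on the iHRAS* arrays. The highest melanocyte array, at 8.76, thus lay just above the lowest iMet array. Of 13 tested, 5 rose in iMet and 9 rose in iHRAS*, none fell in either, and Pi16, Clec3b and Mfap4 were under the dim limit on every melanocyte array. Genes like these could enter the fit only through tumour arrays, so nothing is read from the fibroblast counts against melanocytes. Pdgfra, the receptor that marks fibroblasts, rose by 4.65 ± 0.45 in iMet (limma adjusted p = 2.83e-06) and by 3.79 ± 0.45 in iHRAS* (limma adjusted p = 2.03e-05). Without melanocyte arrays 2 and 4 the fibroblast counts were 3 rising and 1 falling in iMet, and 5 rising and 1 falling in iHRAS*. Without arrays 1 and 3 they were 8 rising in iMet and 12 rising in iHRAS*, with none falling in either. Between the models 2 fibroblast markers were higher and 3 lower in iMet, among them Pdgfra (0.86), Thy1 (−2.16) and Fbln1 (−2.69), with a median of −0.17. The Pdgfra call was lost with median centring (limma adjusted p = 0.0863) and the Thy1 call without iHRAS* arrays 5 and 6 (limma adjusted p = 0.0723). Endothelial and macrophage markers were also higher in tumours than in melanocytes, 8 of 9 and 8 of 8 in each model. Of all genes tested, 16.4% rose in iMet and 18.1% in iHRAS*. The endothelial mean was 3.76 to 4.66 on the melanocyte, 7.19 to 9.25 on the iMet and 6.77 to 7.86 on the iHRAS* arrays. The macrophage mean was 4.52 to 5.12, 9.17 to 10.12 and 7.83 to 9.61. Both melanocyte means lay under the dim limit, so such genes could enter the fit through tumour arrays. Nothing is read from their counts against melanocytes. Between the models 7 of 9 endothelial and 2 of 8 macrophage markers were higher in iMet, the direction of Ogn, against 11.2% of all genes tested. Markers lower in iMet than in iHRAS* were 4 of 10 of keratinocytes, 4 of 6 of Schwann cells and 3 of 6 of melanocytes. Of all genes tested, 782 of 8058 were called lower. The part of these cell types in the member values was not tested.

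Other genes of the proteoglycan family gave no result. Of 10 listed, 4 had a probe set (Epyc, Kera, Optc and Chad), and all were too dim to test.

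The genes whose signal varied most like Ogn within the tumour models were not other members. The measure was the Pearson correlation over the 12 tumour arrays after each model's mean had been subtracted, and the arrays share their normalization. It was ranked over the 8058 genes tested between the models, and how high unrelated genes would reach was not tested. Ogn itself was above the dim limit on only 3 of the 6 iHRAS* arrays. The order is therefore a description only. The highest were Dnajc12 (0.88), a co-chaperone, Nfia (0.87), a transcription factor, Hnrnpll (0.86), an RNA-binding protein, Pcsk6 (0.83), a proprotein convertase, and Mtarc2 (0.83), a mitochondrial reductase. Their mean levels in iMet and iHRAS* ran in both directions. They were 6.65 and 7.15 for Dnajc12, 7.95 and 7.22 for Nfia, and 10.51 and 10.1 for Hnrnpll. Pcsk6 had 6.25 and 6.45, and Mtarc2 9.22 and 9.2. Dpt, named above, ranked next, also at 0.83, with means of 9.38 in iMet and 7.74 in iHRAS*. Of the members, Lum reached 0.40, Aspn 0.38, Dcn 0.37, Omd 0.26, Prelp 0.24 and Bgn −0.08.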

How the data were processed

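Gene expression was measured on Affymetrix M430A_2 mouse arrays. The authors deposited 1 table of log2 signal for all 16 arrays, with 22690 probe sets. The steps that turned probe signals into these values are not given in the sources used here. RNA was taken with Trizol and RNeasy columns and labelled with biotin after oligo-dT priming, per the labels' protocols. Separate animals per array are not stated in the labels, and p-values then measure the spread between these samples, which may be technical.

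The members and gene lists were chosen with earlier results of these data known. Array medians of the deposited log2 values ran from 6.565 to 7.285, a spread above the limit of 0.3, so arrays were quantile-normalized after 64 control probe sets were left out. Quantile normalization removes any true difference in the overall distribution of signal between arrays. Of the probe sets, 20380 had 1 gene symbol, 691 several and 1555 none. A gene was represented by the probe set with the highest mean. A gene was tested if brighter than the 40th percentile of all signal (log2 6.21) on at least 6 of the 12 tumour arrays, or 4 of all 16, leaving 8058 genes for iMet minus iHRAS* and 8651 for the melanocyte comparisons. limma 3.58.1 in R 4.3.3 was fitted on the 12 tumour arrays for the former and on all 16 for the latter, two-sided, with Benjamini-Hochberg adjustment over all genes tested and calls at 0.05. Checked on simulated data, the test recovered 81% (iMet) and 88% (iHRAS*) of genes shifted by 2 log2 units against melanocytes, and 60% and 57% of those shifted by 1, of 8651 genes. For iMet minus iHRAS* (8058 genes) the shares were 87% and 73%. False calls made up 7.8%, 7.1% and 4.2% of all calls in the 3 comparisons. The simulation shifted few genes and gave all groups the same spread for a gene. Members such as Bgn spread more among melanocytes (SD 2.05) than in iMet (SD 0.24), so these shares need not hold for them.

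Named genes were all members, up to 3 tested genes per list with the smallest p and those called against the majority, and the 5 genes most like Ogn. Where a list had 5 or fewer calls, further called genes were named after their values were seen.
Replicate numbers are shared between groups. Over 14 same-numbered pairs the correlation of deviations from the group mean ran from −0.104 to 0.064. The numbers were not used as pairs in the main fit. Such correlations do not settle whether arrays of the same number belong together.
Alternatives were the deposited scaling, median centring, no dim filter, the mean of a gene's probe sets, a replicate block, each array left out, and the melanocyte or iHRAS* array pairs left out. Affymetrix values carry no read depth, so precision is limited by the number of arrays.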

Additional observations from a re-analysis of the deposited data

How the results depend on the processing

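Over the single members, 160 of 192 values against melanocytes in iMet and 181 of 192 in iHRAS* counted as unchanged. For tested values this meant the same direction and the same side of the threshold. For Ogn, which carries no test, and for values outside the fit, it meant a move of less than 1 SD. The 144 values between the tumour models, which carry no test, all moved by less than 1 SD, with Lum and Prelp near 0 and changing sign. Dcn and Lum rose in both models under every alternative run. With the replicate block, 2 of the 7 members other than Ogn rose in iMet instead of 5, since Bgn (1.63, limma adjusted p = 0.0962), Aspn (2.70, limma adjusted p = 0.0858) and Omd (3.63, limma adjusted p = 0.0536) missed the threshold, and 1188 genes were higher and 1213 lower. Between the models the block gave 621 higher and 565 lower. There it ended the calls of Tlr4, Col12a1, Col6a1, Matn2, Tnc and Thbs2 (limma adjusted p from 0.0577 to 0.0793). The labels do not say what the replicate numbers stand for. Of the iMet arrays, 1 of 6 correlated best with the iHRAS* array of its own number, which does not settle whether the numbers pair the samples. With 1 array left out, the number that rose in iMet ran from 2 to 5, the number lower without overlap from 0 to 1, and the number that rose in iHRAS* from 2 to 3. Without melanocyte arrays 2 and 4, 2 rose and 0 fell in iMet, Prelp turned to 0.14 in iMet, and Bgn, Prelp and Aspn turned to −0.22, 0.61 and −0.84 in iHRAS*. Without melanocyte arrays 1 and 3, 2 fell in iMet and 2 lay lower without overlap, and in iHRAS* 4 rose, 1 fell and 1 lay lower without overlap. The cause was not tested. Median centring ended the Bgn call in iMet (1.49, limma adjusted p = 0.0558) and made Omd pass in iHRAS* (2.92, limma adjusted p = 0.0451). Fmod, Omd and Lum include signals near or under the dim limit, where the order of values is not known.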

Other observations

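The genes that flank the members on their chromosomes did not all move with them. Beside the chromosome 13 cluster, Ippk, an inositol phosphate kinase, differed by −0.11 ± 0.17 between iMet and iHRAS* (limma adjusted p = 0.682), and Iars, the isoleucine tRNA synthetase beyond Ogn, by 0.51 ± 0.23 (limma adjusted p = 0.131). Against melanocytes Iars was lower, by −0.79 ± 0.23 in iMet (limma adjusted p = 0.016) and −1.29 ± 0.23 in iHRAS* (limma adjusted p = 0.000607), where Aspn, Omd and Ogn had higher means in iMet. Ecm2, Cenpp and Nol8, which lie in or beside that cluster, were not analysed here. On chromosome 10, Btg1, an antiproliferative gene upstream of Dcn, rose by 1.01 ± 0.15 in iMet (limma adjusted p = 0.000144) and by 1.38 ± 0.15 in iHRAS* (limma adjusted p = 8.18e-06), while Kera and Epyc on the other side of Lum were too dim to test. On chromosome X, Dusp9, a phosphatase of MAP kinases beyond Bgn, rose by 3.31 ± 0.48 in iMet (limma adjusted p = 0.000124) and 2.82 ± 0.48 in iHRAS* (limma adjusted p = 0.000429), and Haus7 on the other side differed by −0.26 ± 0.24 and −0.47 ± 0.24. On chromosome 1, Btg2 beside Fmod differed by −0.52 ± 0.22 in iMet (limma adjusted p = 0.0783) and 0.01 ± 0.22 in iHRAS* (limma adjusted p = 0.969). The order of genes was taken from RefSeq, and whether neighbours moved together more than other genes was not tested.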
